A study of Mus musculus with 2 samples.

Results

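The subunits of the receptors for GABA and glutamate were described across cells from the arcuate nucleus with its median eminence, a part of the hypothalamus that controls feeding, growth and reproduction. The set was taken by gene name and not by measured level, and it comprised 43 of the 29809 genes in the 2 count tables. There were 17 subunits of GABAA receptors, 2 of GABAB receptors, 4 of AMPA, 5 of kainate and 7 of NMDA receptors, and 8 metabotropic glutamate receptors. Gabra6 and Gabrr3 also fit the naming pattern but had no row in either table, and Grm6 had a row only in the double heterozygote table, with 1 UMI.

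The tissue came from CD-1 mice aged 7 to 8 weeks. One library was made from 7 pooled wild type mice (WT) and the other from 5 pooled mice heterozygous for both Irx3 and Irx5 (Irx3/5dHet, genotype Irx3/5+/-), which encode Iroquois transcription factors. Live dissociated cells were sorted and captured by Drop-seq, which tags the 3' ends of the RNA of single cells with unique molecular identifiers (UMIs). Since each genotype was a single pool and cells are not replicates, no p-value is given, every interval is a 95% interval for counting error only, and genotype, pool and library preparation cannot be told apart. Pairs of values give wild type first and the double heterozygote second.

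GABAA receptors are chloride channels built from 5 subunits, commonly alpha, beta and gamma, and GABAB receptors are pairs of Gabbr1 and Gabbr2 products that signal through G proteins. AMPA, kainate and NMDA receptors are cation channels opened by glutamate and named for selective agonists, and metabotropic glutamate receptors act through G proteins. In this region GABA and glutamate carry most of the fast input onto the neurons that release hypothalamic peptides. Oligodendrocyte precursors, which can divide and mature into the oligodendrocytes that form myelin, are known to receive synapses from neurons and to carry receptors for both transmitters.

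Barcodes with 300 or more genes and no more than 20% of UMIs from mitochondrial genes were kept and called doublets removed, which left 2392 and 1480 cells with medians of 1274 and 1156.5 UMIs. Clusters were made without the subunit genes and named from marker genes. Neuron-like cells numbered 825 and 710 in 7 clusters, and oligodendrocyte precursor-like cells 241 and 73 in 2 clusters. Summed neuron markers reached 12882 and 12663 CPM (counts per 1000000 UMIs of the class) in the neuron-like cells, with all 10 markers detected. The 9 precursor markers summed to 9363 and 10607 CPM in the precursor-like cells, again with none at 0. Median depth was 1569 and 1760.5 UMIs in neurons but 1140 and 709 in precursors, so the precursors of the double heterozygote library are the least well measured. Irx3 was read at 30 and 15 UMIs and Irx5 at 16 and 6 UMIs over all used cells, folds of 0.746 (0.373 to 1.43) and 0.560 (0.179 to 1.51), so these counts do not establish the genotype. The libraries shared 3 barcode sequences, 1 of them among the used cells.

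Genes for 30 of the 43 members had a promoter window in the RefSeq table for GRCm38.p6, which spans 250 bases before and 50 bases after a transcription start. The AMPA subunit genes Gria2 and Gria4 are shown because both were read in neurons and in oligodendrocyte precursors and Gria2 was the most abundant subunit in each. The 250 bases before the start are given 5' to 3' on the gene's own strand, which is the minus strand for both. Gria2 lies at chr3:80802836-80803085 and Gria4 at chr9:4796235-4796484, and capitals mark a match to the core of RE1, the element bound by REST, a repressor of neuronal genes in other cells.
Gria2: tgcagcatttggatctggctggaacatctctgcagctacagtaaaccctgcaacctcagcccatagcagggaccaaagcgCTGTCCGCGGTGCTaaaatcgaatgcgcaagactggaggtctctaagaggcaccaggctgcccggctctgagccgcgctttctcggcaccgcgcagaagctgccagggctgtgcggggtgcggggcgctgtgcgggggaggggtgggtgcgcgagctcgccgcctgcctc
Gria4: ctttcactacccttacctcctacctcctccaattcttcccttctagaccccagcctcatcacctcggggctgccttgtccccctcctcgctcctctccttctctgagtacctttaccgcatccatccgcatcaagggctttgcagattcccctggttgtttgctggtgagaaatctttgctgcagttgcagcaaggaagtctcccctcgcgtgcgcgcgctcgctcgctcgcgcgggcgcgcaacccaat
The core was searched on both strands as the 6 letters AGCACC and the 6 letters GGACAG with any 2 bases between them. It was found in 17 of 32851 promoter windows (0.0517%), and among the members only in Gria2, from -170 to -157 relative to the start on the opposite strand. No match in the other windows says only that these letters are not in them.

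Receptor subunit UMIs were concentrated in neurons, and the oligodendrocyte precursors came close to neurons in subunit level. Neuron-like cells held 76.7% of 8212 wild type subunit UMIs and 91.7% of 6993 double heterozygote ones, against 45.4% and 67.0% of all UMIs. Precursors held 11.3% and 2.47% of subunit UMIs, against 7.71% and 2.34% of all UMIs. The summed level of all subunits was 3260 and 3359 CPM in neurons and 2832 and 2588 CPM in precursors. Tanycytes, the radial glia-like cells of the ventricle floor, reached 782 and 770 CPM. Mature oligodendrocytes reached 405 and 543 CPM, so the level in precursors was several times that of the cells they give rise to.

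**Figure D1:**
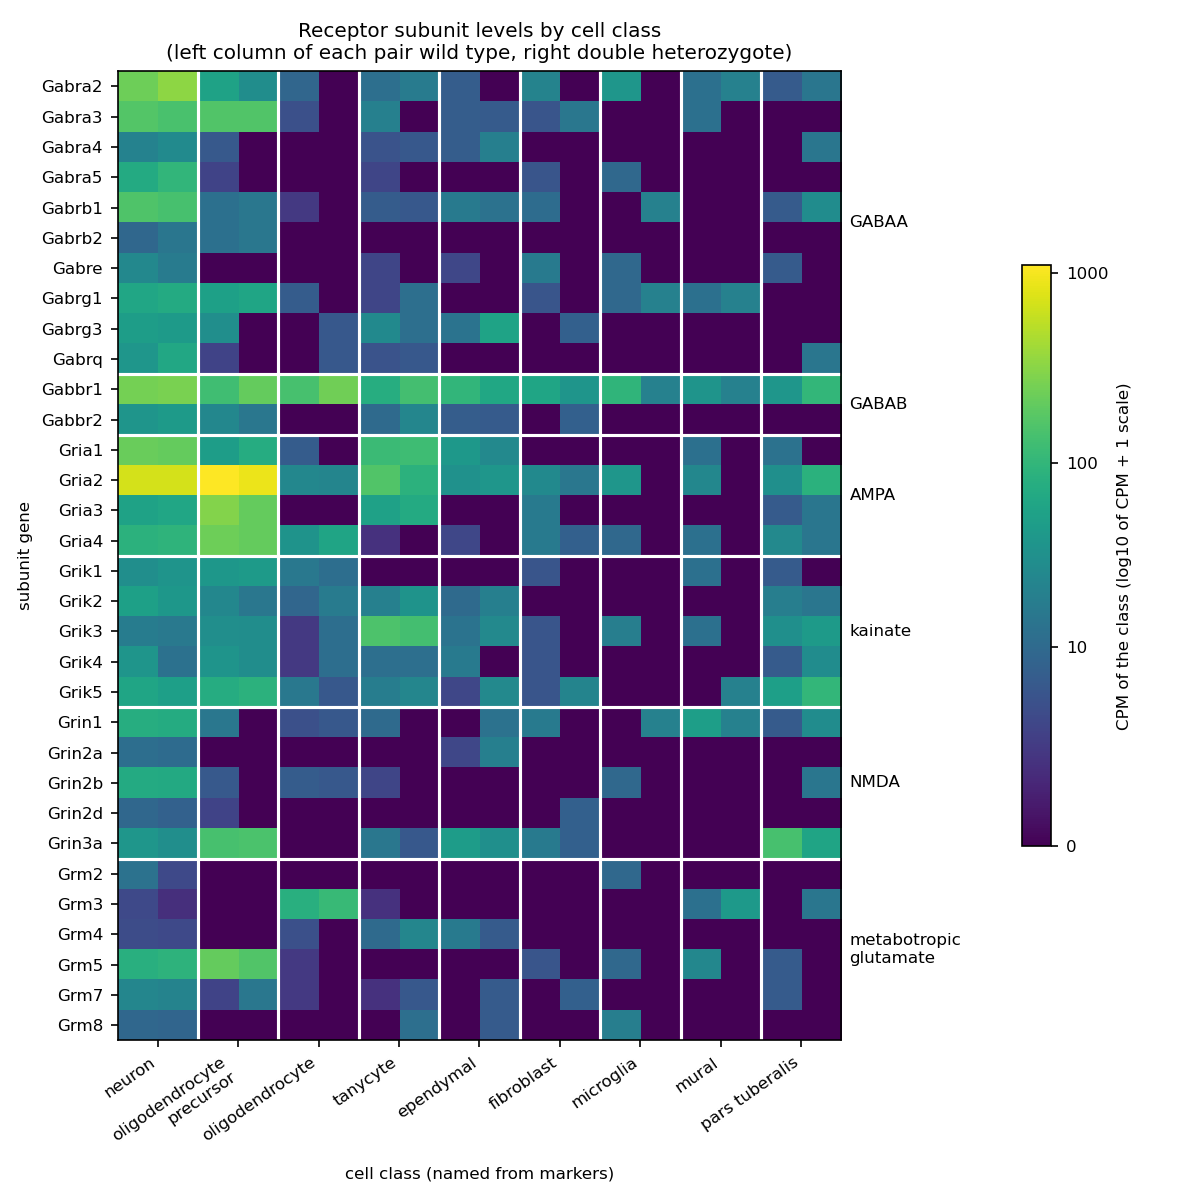
Level of subunit genes with at least 20 UMIs over all used cells (rows, grouped by receptor family) in 9 cell classes (paired columns, wild type left and double heterozygote right), coloured by CPM of the class on a log scale. Gria2 is brightest in neurons and precursors, while Grm3 is highest in oligodendrocytes and Grik3 in tanycytes.

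Of the 36 members with at least 20 UMIs over all used cells, 27 were at least 2-fold higher in neurons than in all other cells in both libraries, against 11.6% of the 16549 genes with as many UMIs. Each of these folds compares cells within a library. Over the 9 classes that had 40 or more cells per library, the highest level was in neurons for 20 of the 36 in both libraries. It was in oligodendrocyte precursors for 7, namely Gabrb2, Gria2, Gria3, Gria4, Grik1, Grin3a and Grm5. Of these, Gabrb2 rested on 4 and 1 UMIs there and Grik1 on 13 and 3. The folds of these 2 over neurons had intervals that included 1 in both libraries. So did the double heterozygote folds of Gria2 and Grm5. The remaining 9 comprised Grm3, highest in oligodendrocytes, Grik3, highest in tanycytes, and 7 genes whose highest class differed between the libraries. The share of all genes highest in each class was not computed, so these counts are not shown to be particular to the subunits.

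Depth affects how many cells show a UMI, so each cell was also thinned to 1000 UMIs. Then 93.1% of 521 and 95.4% of 476 neurons had a UMI of some subunit, against 27.0% of 163 and 42.3% of 78 oligodendrocytes, the class taken for comparison. Of precursors, 95.8% of 142 and 90.5% of 21 had one. Without thinning the shares were 94.4% and 93.7% of neurons, 91.3% and 82.2% of precursors and 38.1% and 44.3% of oligodendrocytes. The contrast differed between families. A UMI of an AMPA subunit was found in 62.0% and 66.0% of thinned neurons, in 76.1% and 76.2% of precursors and in 4.91% and 10.3% of oligodendrocytes. For GABAA subunits the shares were 69.7% and 75.0% of neurons, 31.0% and 38.1% of precursors and 3.68% and 2.56% of oligodendrocytes. For metabotropic receptors they were 16.5% and 18.5% of neurons, 16.2% and 14.3% of precursors and 9.82% and 7.69% of oligodendrocytes. For GABAB subunits the oligodendrocytes stood at 8.59% and 23.1%, the neurons at 24.8% and 24.2% and the precursors at 11.3% and 23.8%. A GABAB share above that of oligodendrocytes was therefore not shown in precursors, nor in neurons of the double heterozygote. The oligodendrocyte GABAB share came from Gabbr1 alone and their metabotropic share from Grm3 alone. For these families oligodendrocytes are thus not an empty background, and the comparison cannot show whether the other classes exceed noise. Gabbr2 was found in 4.03% and 4.20% of thinned neurons and in 0 oligodendrocytes.

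In neurons, GABAA and AMPA subunits made up most of the receptor RNA. GABAA subunits summed to 1325 and 1457 CPM and AMPA subunits to 1054 and 1067 CPM. GABAB stood at 289 and 313, NMDA at 215 and 193, kainate at 198 and 154 and metabotropic receptors at 180 and 174 CPM. These are CPM levels from 3' ends, with no scaling to transcript length, and the order of genes also depends on how well each 3' end is annotated and captured.

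Among GABAA subunits of neurons, the alpha position was shared by several genes. The alpha subunits set the binding site for benzodiazepines together with gamma, and they were counted with 1240 and 1458 UMIs in all. Gabra2 made up 36.2% and 43.8% of them, and Gabra3 26.0% and 19.3%, so Gabra2 was the leading alpha subunit in both libraries. Gabra5 was at 71.4 and 99.5 CPM and Gabra4 at 21.2 and 27.2 CPM. Of the beta subunits, which hold the GABA site with alpha, Gabrb1 was at 159 and 143 CPM and Gabrb2 at 9.32 and 14.7 CPM. Of the gamma subunits, which anchor the receptor at synapses, Gabrg1 was at 62.6 and 70.2 CPM and Gabrg3 at 47.6 and 44.5 CPM. Gabre and Gabrq, which encode the less common epsilon and theta subunits, were at 25.4 and 17.3 CPM and at 38.3 and 65.5 CPM. Gabrd, Gabrp and the rho subunits Gabrr1 and Gabrr2 had at most 9 UMIs each in either library over all used cells, so their levels in neurons were not measurable at this depth.

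The glutamate receptors of neurons were led by Gria2, the subunit that makes AMPA receptors nearly impermeable to calcium once its RNA is edited. It had 1332 and 1348 UMIs, a level of 689 CPM (653 to 727) and 706 CPM (669 to 745), and made up 65.4% and 66.1% of AMPA subunit UMIs. Gria1 followed with 20.9% and 19.3%, then Gria4 with 8.40% and 8.69% and Gria3 with 5.30% and 5.84%. These 4 shares differed little between the libraries. Among NMDA subunits the obligatory Grin1 gave 36.4% and 37.7% and Grin2b 32.8% and 35.8% of the UMIs. Grin2a, the subunit that joins many NMDA receptors in maturing forebrain, gave 5.30% and 5.42%, and Grin3a, which lowers calcium entry, gave 18.1% and 15.7%. Among metabotropic receptors Grm5, which is coupled to Gq, gave 46.1% and 52.6%. Gabbr1 outnumbered Gabbr2, with 252 and 269 CPM against 37.8 and 44.0 CPM, although both products are needed for a working GABAB receptor at the surface.

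Between the libraries the subunits of neurons as a set lay close to 0, and the only members at least 2-fold apart were Grik4 and Grm2. Of the 43 members, 34 had at least 20 UMIs over both libraries in neurons, and their median log2 ratio (double heterozygote over wild type) was -0.05, with 15 above 0 and 19 below. Over all 13043 genes with as many UMIs the median was -0.06, with 5881 above 0 and 7162 below. No member was at least 2-fold higher in the double heterozygote, against 2.66% of these genes, and 2 were at least 2-fold lower, against 9.03%. These shares are near or below those of all genes. By family, 8 of 13 GABAA members lay above 0 (median log2 0.16), as did 3 of 4 AMPA members (median 0.05), both GABAB members, 1 of 5 kainate members (median -0.24), 0 of 5 NMDA members (median -0.12) and 1 of 5 metabotropic members (median -0.07). Summed UMIs gave folds of 1.10 (1.04 to 1.16) for GABAA and 0.781 (0.669 to 0.912) for kainate subunits. The fold was 1.01 (0.952 to 1.08) for AMPA subunits. Single members weigh in these sums and the folds are not shifts of whole families. Gabra2 alone had 449 and 638 UMIs, and Grik4 had 72 of 382 and 24 of 295 kainate UMIs. The family folds without these members were not tested.

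**Figure D2:**
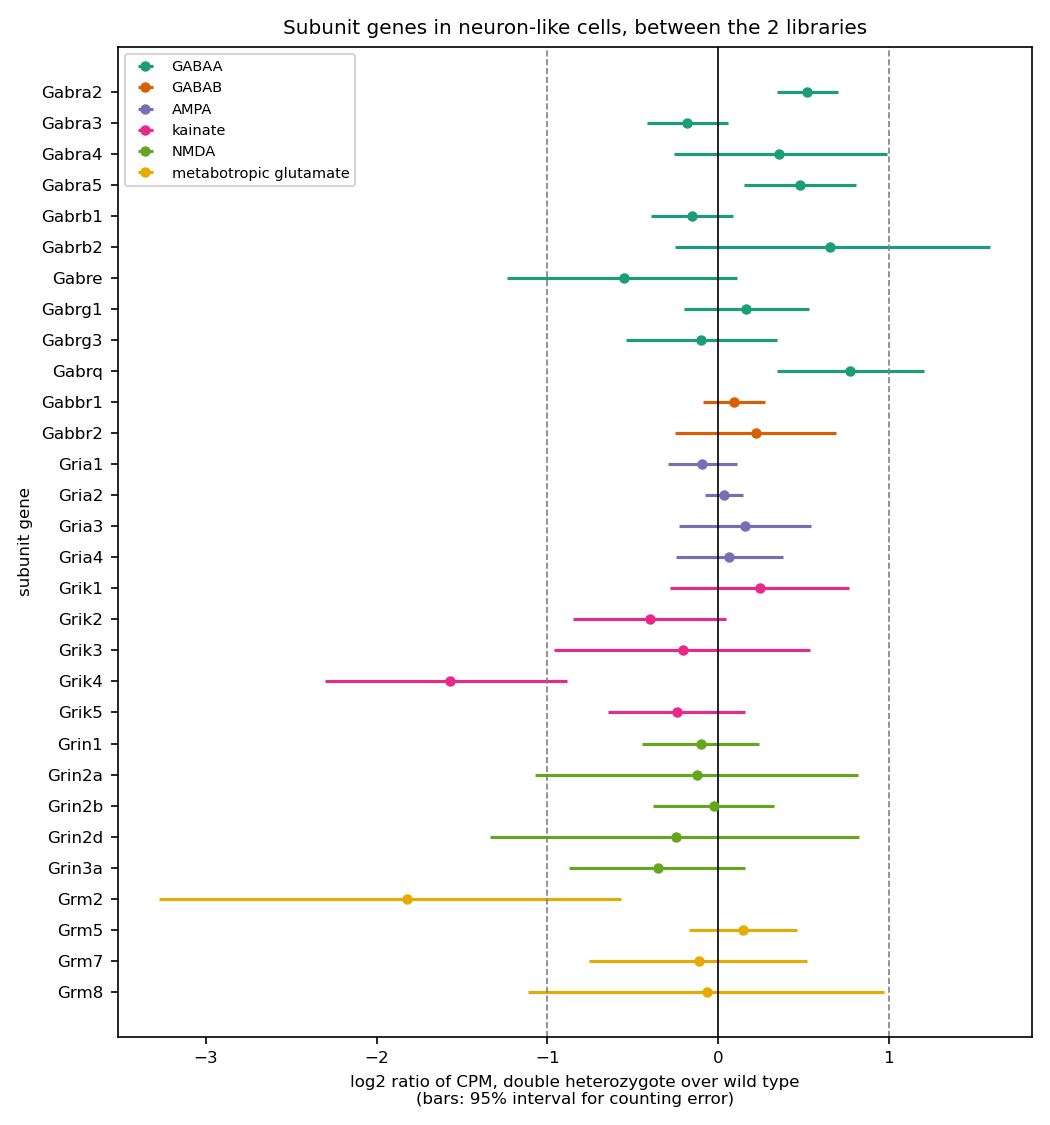
Log2 ratio of CPM between the libraries, double heterozygote over wild type, for subunit genes (vertical axis) with at least 20 UMIs in neuron-like cells, coloured by family, with bars for the 95% counting interval and dashed lines at 2-fold. Grik4 and Grm2 lie left of the 2-fold line, and Gabrq and Gabra2 lie furthest right of 0 among members whose bars do not reach 0.

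Gabra2 (ENSMUSG00000000560, chr5:70957597-71095849, minus strand, GRCm38) was higher in double heterozygote neurons. It had 449 and 638 UMIs, found in 270 of 825 and 291 of 710 cells, or 232 CPM (211 to 255) and 334 CPM (309 to 361), and the 2 intervals do not overlap. The log2 ratio was 0.52 (0.35 to 0.70), under the 2-fold limit. The level was higher in the double heterozygote in each of the 7 neuron clusters, from 119 and 188 CPM in cluster 7, the lowest, to 462 and 534 CPM in cluster 6, the highest. Taken alone, the interval of the fold lay above 1 only in cluster 0, at 1.58 (1.34 to 1.87), and included 1 in the other 6. After thinning to 1000 UMIs, 21.5% (18.0 to 25.3) and 26.5% (22.6 to 30.7) of neurons had a Gabra2 UMI, and these intervals overlap.

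Gabra5, whose product forms mainly extrasynaptic receptors, had 138 and 190 UMIs and a log2 ratio of 0.48 (0.15 to 0.81), and was higher in 6 of 7 clusters. Gabrq, on chrX:72825178-72842602, had 74 and 125 UMIs in 61 and 91 neurons, with at most 3 and 4 in a single cell. Its log2 ratio of 0.77 (0.35 to 1.21) was the highest among the 34 members with at least 20 UMIs, and it was higher in 5 of 7 clusters. Its share of thinned neurons was 3.26% (1.91 to 5.17) and 7.56% (5.35 to 10.3).

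Grik4 and Grm2 were the members at least 2-fold lower in double heterozygote neurons. Grik4 (chr9:42518135-42944493), a kainate subunit of the high-affinity type, had 72 and 24 UMIs, a log2 ratio of -1.57 (-2.30 to -0.88). In cluster 6, the neurons of lowest depth with medians of 669 and 598 UMIs and Meg3 and Snhg11 as leading genes, it had 28 wild type UMIs and 1 from the double heterozygote. Without that cluster the log2 ratio was -0.96, within 2-fold. Matched on the clusters it was -1.36, still past 2-fold, and Grik4 was lower in 6 of 7 clusters. Grm2 (chr9:106643095-106656082), a presynaptic inhibitory receptor coupled to Gi, had 25 and 7 UMIs, a log2 ratio of -1.82 (-3.27 to -0.57). Of these, 20 and 7 lay in cluster 14, which held 68 and 32 cells, and the ratio matched on the clusters was -0.90, within 2-fold. The summed subunit level of cluster 6 was 6202 and 5856 CPM, the highest of the 7 clusters.

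Several neuron clusters differed in a few subunits the same way in both libraries. These clusters were picked out after their leading genes had been seen, and the subunits took no part in making them. In cluster 7, led by Vip with Scg2 and Avp and holding 133 and 68 cells, Gabrg3 was at 111 and 131 CPM against 37.7 and 38.6 CPM in the other neurons, folds of 2.94 (1.83 to 4.64) and 3.38 (1.83 to 5.89). Of 13 members with enough UMIs, 2 were past 2-fold there in both libraries, against 4.48% of all genes.

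In cluster 14, led by Foxb1 and the glutamate transporter gene Slc17a6, Grm2 and Gabbr2 were among the members higher than in the other neurons. Grm2 was at 132 and 90.0 CPM, from 20 and 7 UMIs, against 2.81 CPM and 0 UMIs in the other neurons. The level was 46.9-fold higher (17.1 to 160) in wild type. In double heterozygote cells the ratio was 55.0 against a floor of 3 counts over the other neurons, with a lower 95% limit of 34.0-fold for the counts themselves. Gabbr2 was at 132 and 129 CPM, folds of 4.43 (2.51 to 7.53) and 3.18 (1.47 to 6.19). The channel subunit gene Gabra4 was also higher, with folds of 4.86 (2.26 to 9.81) and 3.07 (1.07 to 7.22). It had 12 and 6 UMIs there and was not among the members with enough UMIs for a call. Of 16 members with enough UMIs, 3 were past 2-fold there in both libraries, against 4.79% of all genes. Gria2 was also high there, at 1041.4 and 1286.4 CPM, folds of 1.58 and 1.89.

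In cluster 16, led by Npy and Agrp and holding 13 and 43 cells, 1 of 10 members was past 2-fold in both libraries, against 2.69% of genes. In cluster 18, led by Tac2 and Kiss1 with 16 and 23 cells, none of 4 members was past 2-fold in both libraries, against 3.72% of genes.

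**Figure D3:**
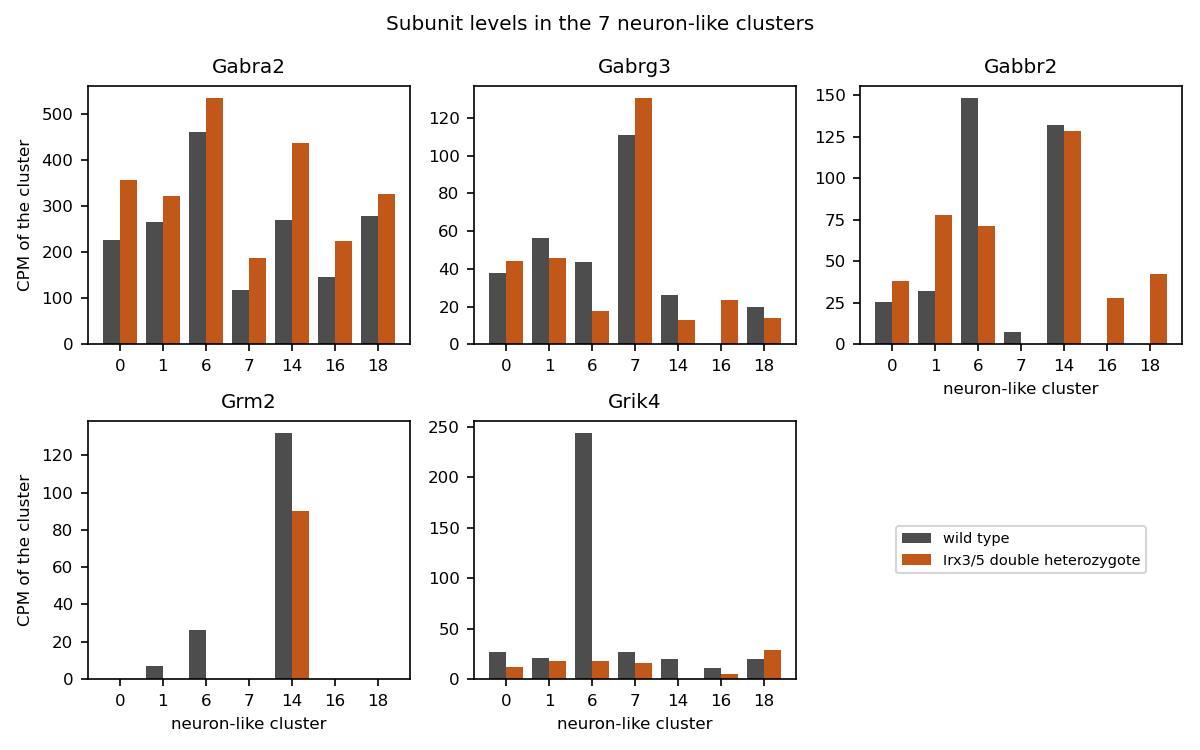
CPM of 5 subunit genes (panels, each with its own axis from 0) in the 7 neuron-like clusters (horizontal axis), with grey bars for wild type and orange bars for the double heterozygote and no error bars because each bar is 1 library. Grm2 rises almost only in cluster 14, Gabrg3 peaks in cluster 7, and the wild type Grik4 level stands out in cluster 6.

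Peptide neuron types were set by the UMIs of their defining peptide genes, at least 5 per cell, and the Kiss1, Sst, Gal and Avp types had at least 15 cells in each library. The summed subunits were lower than in the other neurons in all 4 types of both libraries. The folds were 0.619 (0.521 to 0.730) and 0.869 (0.755 to 0.995) for the Kiss1 type, 0.793 (0.714 to 0.879) and 0.845 (0.765 to 0.932) for Sst, 0.811 (0.715 to 0.918) and 0.916 for Gal, where the last interval just included 1, and 0.661 (0.581 to 0.748) and 0.736 (0.638 to 0.845) for Avp. Depth moved with this result. The types' median depths ran from 1744 to 6205.5 UMIs per cell, against 1257 and 1358 in neurons of no type, and the part of depth in the lower levels was not tested.

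The Avp type, which also takes Oxt cells and holds the makers of vasopressin and oxytocin (55 and 30 cells), had lower AMPA subunit RNA than other neurons in both libraries. AMPA subunits summed to 563 and 553 CPM, folds of 0.518 (0.399 to 0.662) and 0.507 (0.370 to 0.679), while GABAB subunits were at 289.8 and 264.6 CPM against 289 and 315 CPM in the other neurons. Gria2 had 37 and 22 UMIs, at 315 and 265 CPM against 714 and 726 CPM in the other neurons, folds of 0.442 (0.310 to 0.612) and 0.364 (0.228 to 0.554). Gabra2 had 11 and 13 UMIs, folds of 0.388 (0.192 to 0.702) and 0.457 (0.242 to 0.787). These were the 2 of 14 members past 2-fold in both libraries, against 3.70% of genes. Gabbr1 had 33 and 21 UMIs, folds of 1.13 and 0.938.

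In the Kiss1 type, which holds the Kiss1 and Tac2 neurons that pace reproductive hormone release (18 and 23 cells), Gria2 had 33 and 49 UMIs, Gabra2 21 and 26 and Gabbr1 13 and 23. Of 11 members with enough UMIs, 1 was past 2-fold in both libraries, against 2.81% of genes, with intervals that included 1. Metabotropic glutamate receptors summed to only 2 and 5 UMIs there, folds of 0.152 (0.0184 to 0.554) and 0.378 (0.122 to 0.892). Gabra2 made up 52.5% (36.1 to 68.5) of 40 and 59.1% (43.3 to 73.7) of 44 alpha subunit UMIs. Both intervals included the shares over all neurons, 36.2% and 43.8%. The Gabra2 level gave folds over the other neurons of 1.29 (0.789 to 1.99) and 1.05 (0.683 to 1.56), so a Gabra2 trait of this type was not shown.

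In the Sst type (28 and 42 cells) and the Gal type (16 and 41 cells), 0 of 20 members each were past 2-fold in both libraries, against 0.844% and 1.09% of genes. The leading members were Gria2 with 66 and 111 UMIs, Gabra2 with 34 and 49 and Gabbr1 with 37 and 36 in the Sst type. In the Gal type they were Gria2 with 50 and 105, Gabbr1 with 35 and 46 and Gabra2 with 12 and 58. NMDA subunits were lower than in other wild type neurons in both types, folds of 0.478 (0.271 to 0.786) and 0.454 (0.216 to 0.844), but the double heterozygote folds of 0.885 (0.570 to 1.32) and 0.842 (0.551 to 1.24) included 1.

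**Figure D4:**
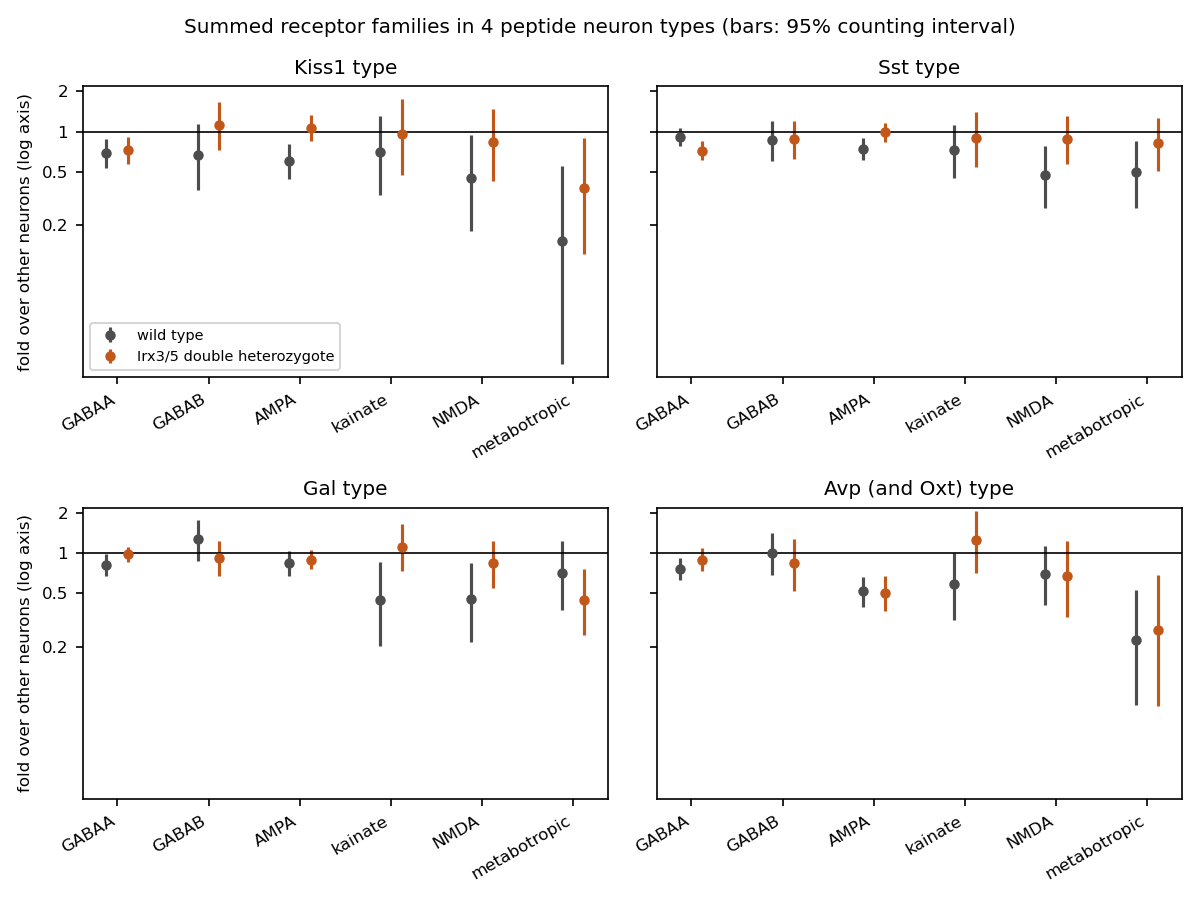
Fold of the summed CPM of each receptor family (horizontal axis) over the other neuron-like cells of the same library (vertical log axis), in 4 peptide types, with grey points for wild type, orange points for the double heterozygote and bars for the 95% counting interval. AMPA subunits of the Avp type lie near 0.5 in both libraries, and metabotropic receptors are low in the Kiss1 and Avp types.

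Of the types below 15 cells in a library, Agrp, Pomc and Vip are given as values. Agrp cells, which drive feeding, numbered 11 and 34, with median depths of 4128 and 5631 UMIs. Their subunits summed to 1649 and 2131 CPM, folds of 0.495 (0.413 to 0.590) and 0.609 (0.550 to 0.674), with GABAA subunits at 0.463 and 0.551 and AMPA subunits at 0.658 and 0.759 of the other neurons. Pomc cells, which restrain feeding, numbered 12 and 19. Their subunits gave folds of 0.737 and 0.853, with GABAA subunits at 0.624 and 0.669 but AMPA subunits at 1.08 (0.774 to 1.47) and 1.10 (0.908 to 1.33). Gria2 was at 320 and 543 CPM in Agrp cells and at 888 and 724 CPM in Pomc cells. Vip cells numbered 25 and 9, and their summed folds differed between the libraries, at 0.412 (0.316 to 0.528) from 63 UMIs and 0.951 (0.721 to 1.23) from 58 UMIs.

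In oligodendrocyte precursors AMPA subunits came first, and not GABAA subunits as in neurons. This order was not particular to them, since AMPA subunits also came first in tanycytes. In the small cluster of dividing cells, 11 and 6 in number, Gria2 led too, with 15 and 4 UMIs. The levels that follow are those of the precursors. AMPA subunits summed to 1670 and 1391 CPM, GABAA to 424 and 419, metabotropic receptors to 210 and 180, kainate to 207 and 209, NMDA to 168 and 165 and GABAB to 152 and 224 CPM. Gria2 had 359 and 60 UMIs, at 1094.2 CPM (984 to 1214) and 898 CPM (685 to 1155), and 65.5% and 64.5% of the AMPA subunit UMIs, a share like that of neurons. Gria3 and Gria4 took 17.7% and 15.1%, and 13.9% and 15.1%, while Gria1 took 2.92% and 5.38%, so Gria1 and not Gria3 and Gria4 was the minor partner.

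Set against neurons of the same library, Gria3 was at 296 and 209 CPM, folds of 5.29 (3.98 to 7.02) and 3.36 (1.78 to 5.86). Grin3a was at 143 and 150 CPM, folds of 3.69 (2.51 to 5.38) and 4.93 (2.24 to 9.72), so the order of these 2 members differed between the libraries. Gria4 was at 232 and 209 CPM, folds of 2.62 (1.97 to 3.45) and 2.26 (1.21 to 3.89), and Grm5 at 207 and 165 CPM, folds of 2.50 (1.86 to 3.34) and 1.80 (0.880 to 3.29). Lower than in neurons were Gria1, folds of 0.222 (0.126 to 0.364) and 0.363 (0.117 to 0.853), and Gabra2, folds of 0.236 and 0.0896. The libraries gave the same direction for each of these.

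**Figure D5:**
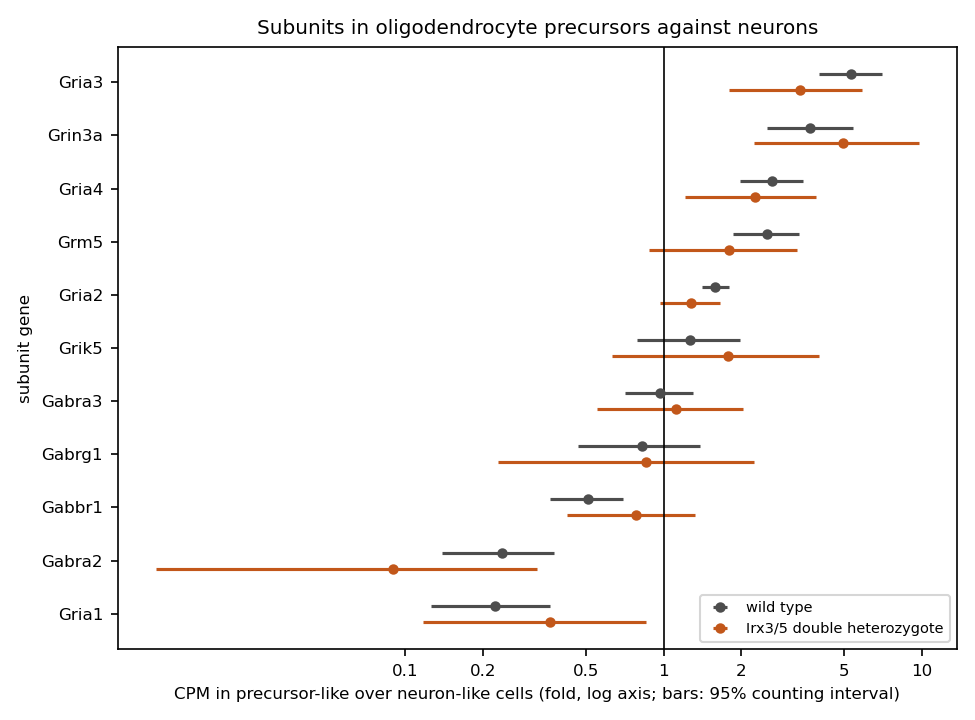
Fold of CPM in oligodendrocyte precursor-like over neuron-like cells of the same library (horizontal log axis) for subunit genes with at least 20 UMIs in precursors, with grey points for wild type, orange points for the double heterozygote and bars for the 95% counting interval. Gria3, Grin3a and Gria4 lie right of 1 with their bars in both libraries, and Gria1 and Gabra2 lie left of it.

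Grin3a made up 47 of 55 and 10 of 11 NMDA subunit UMIs of precursors, while Grin1, which every NMDA receptor needs, had 5 and 0 UMIs and Grin2b 2 and 0. In the double heterozygote a count of 0 allows a level of up to 3 counts, so absence is not shown. Grm5 made up 68 of 69 and 11 of 12 metabotropic UMIs. Among GABAA subunits, Gabra3 led with 53 of 86 and 11 of 15 alpha UMIs and Gabrg1 with 17 of 31 and 4 of 4 gamma UMIs. Neurons and precursors thus differed in the leading alpha subunit.

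Neuronal RNA in the precursor class bears on these levels. The neuron markers summed to 1561 and 1391 CPM in precursors, against 12882 and 12663 CPM in neurons, with 0 and 2 of 10 markers at 0, and Stmn3 with 500 and Gap43 with 482 CPM in wild type made up most of it. In wild type the folds of the 10 markers over neurons ran from 0.0289 for Rbfox3, with 1 UMI, to 0.577 for Elavl4. Stmn3 was at 0.422, Gap43 at 0.293 and Snap25 at 0.119. Syt1 and Stmn2 were at 30.5 and 45.7 CPM, folds of 0.0508 and 0.0376. Gria3, Gria4 and Grin3a were above their own level in neurons in both libraries, with intervals that did not reach 1. Gria1 and Gabra2, at wild type folds of 0.222 and 0.236, lay below Elavl4, Stmn3 and Gap43 and above all the other markers, of which Snap25 was the highest. For these and the other members lower than in neurons, the part of neuronal RNA was not tested.

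Against all other cells, 5 of the 36 members with at least 20 UMIs were at least 2-fold higher in precursors in both libraries, against 14.2% of all genes, so the share of members was near that of genes in general. They were Gria3, Gria4, Grik5, Grin3a and Grm5. Within the class, the committed precursors of cluster 19, marked by Gpr17 and holding 20 and 14 cells, had no Grm5 UMI in either library, while the other precursors had 68 and 11. In wild type the ratio was 5.32 against a floor of 3 counts in the committed precursors, with a lower 95% limit of 4.21-fold for the counts themselves. The double heterozygote counts were too few for a lower limit above 1. Gabra3 was also lower in the committed cells, with 52 UMIs in the other wild type precursors and 1 in the committed ones, a fold of 12.2 (2.10 to 491). Gria2 did not follow this, at 997 CPM in the other and 1508 CPM in the committed precursors of wild type.

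Between the libraries, 12 members had at least 20 UMIs in precursors, with a median log2 ratio of 0.04 against -0.05 over 4685 genes. Of these, 1 was at least 2-fold higher in the double heterozygote, against 5.49% of genes, with an interval that included 0. No member was at least 2-fold lower, against 12.7% of genes. With 66842 UMIs in the 73 double heterozygote precursors, smaller differences were not detectable at this depth. Gria2 had a log2 ratio of -0.29 (-0.71 to 0.11), Gria3 of -0.50 (-1.42 to 0.32) and Gabbr1 of 0.71 (-0.28 to 1.61).

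A few subunits were highest outside neurons and precursors. Grm3, coupled to Gi, was at 82.7 CPM (58.3 to 114) and 111 CPM (66.8 to 173) in oligodendrocytes, against 3.62 and 1.57 CPM in neurons, and had no UMI in precursors. Grik3 was at 155 CPM (125 to 190) and 135 CPM (85.7 to 203) in tanycytes, against 18.1 and 15.7 CPM in neurons. Tanycytes also had Gria1 at 116 and 123 CPM and Gria2 at 163 and 88.2 CPM, so AMPA and kainate subunits made up most of their subunit RNA, at 335 and 282 and at 205 and 206 CPM. Gabbr1 was at 143 and 239 CPM in oligodendrocytes, and its folds in neurons over all other cells were 2.73 and 2.41.

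The 15 genes of GABAA subunits in groups of neighbours on 5 chromosomes did not share 1 pattern across classes. The group Gabre, Gabra3 and Gabrq on chromosome X summed to 230 and 230 CPM in neurons and to 165 and 165 CPM in precursors. The precursor sums were 53 of 54 and 11 of 11 UMIs from Gabra3. In neurons Gabrq was at 38.3 and 65.5 CPM. Gabra3, at 167 and 147 CPM, and Gabre, at 25.4 and 17.3 CPM, were lower in the double heterozygote, but not beyond counting error. The group Gabrg1, Gabra2, Gabra4 and Gabrb1 on chromosome 5 stood at 476 and 575 CPM in neurons and 125 and 105 CPM in precursors. The rho pair Gabrr2 and Gabrr1 on chromosome 4 had 0 and 1 UMI in neurons.

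Of 65 other genes of the 2 transmitter systems, 58 had at least 20 UMIs in neurons, 22 above 0 and 36 below, with a median log2 ratio of -0.12. All measured genes of neurons leaned the same way, with 5881 of 13043 above 0 and 7162 below. None of the 58 was at least 2-fold higher in the double heterozygote, against the 2.66% of all genes given above. The single gene at least 2-fold lower was Shank3, a scaffold of excitatory synapses, with 21 and 6 UMIs and a log2 ratio of -1.79 (-3.39 to -0.43), against 9.03% of genes. Just inside the limit was Cnih2, an AMPA receptor auxiliary subunit, with 237 and 462 UMIs, 123 and 242 CPM and a log2 ratio of 0.98 (0.75 to 1.21). Of the scaffold genes of inhibitory synapses, 5 of 9 lay above 0, while Nlgn2 was at -0.62 (-1.02 to -0.23). Uptake genes lay below 0 in 5 of 5 (median -0.41). Of the transmitter supply genes, 2 of 8 lay above 0, with the GABA-making enzyme gene Gad2 at 0.21 (0.07 to 0.35) and the glutamate vesicle transporter gene Slc17a6 at -0.36 (-0.58 to -0.15). Dlg4, which encodes the postsynaptic scaffold PSD-95, was at -0.55 (-0.85 to -0.26).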

How the data were processed

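The labels describe 1 Drop-seq library per genotype, and among the tools in the submitters' processing notes are STAR 2.6.0b, Picard, bcl2fastq and Seurat 3, with the build mm10. The deposited tables of each library hold UMI counts per gene and barcode. The authors also deposited a merged table of natural log values, used here for its barcodes alone, as a second choice of cells. The annotation and whether counting used strand: not given in the sources used here. The tables held 2800 and 1800 barcodes with 4426817 and 2974060 UMIs.

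Doublets were called with Scrublet (scanpy 1.11.5), which marked 17 of 3889 cells (0.437%), under the 5% expected, so the cells may still hold doublets. Both libraries were clustered together (30 principal components of 2000 variable genes, 20 neighbours, Leiden resolution 1, leidenalg 0.10.2) without the subunit genes. A cluster took a name with at least 3 markers in 10% of its cells at over 2 times the median cluster, a score of at least 2 and 0.6 of the class's best, limits chosen with the clusters in view. For each class and library, summed UMIs were scaled to CPM, with exact Poisson, conditional binomial and Clopper-Pearson intervals (scipy 1.17.1). The ratio code was tested on simulated counts. A call was a fold of at least 2 with at least 20 UMIs over both libraries. In peptide types and clusters the same direction in both libraries was also needed, with at least 10 UMIs in the type or 20 in the cluster.

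The members and lists were chosen with earlier results of these data known. Named genes were the 15 members with most UMIs in neurons, the 8 in precursors, the 3 in each type and every call. Gabrq, Gabre, Gabrd, Gabrp, Gabrr1, Gabrr2, Grm3, Grik3, the smaller composition shares, the committed precursor contrast and the partner genes other than Shank3 were named after their values were seen. Results for some members and partner genes are not reported here, in the text or the figures, while counts, sums and medians cover all members. Of the members, 7 overlap another coding gene in GENCODE vM21, among them Gabra4 with Gabrb1 on opposite strands, and Grin3a with Ppp3r2 on the same strand. Coordinates are from GENCODE vM21 on GRCm38, which is the build mm10.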

Additional observations from a re-analysis of the deposited data

How the results depend on the processing

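No paired analysis was possible because each genotype was 1 library. Of 232 alternatives of the main results, 191 stayed within the limits and 41 moved; of 1620 of single genes 155 moved and 0 reversed. For neurons, the count of subunits at least 2-fold lower (2) became 4 with a minimum of 10 UMIs, 1 with 50, 6 with no minimum, 1 without the neuron cluster of lowest depth, 1 matched on clusters and 4 in neurons of no peptide type. The count at least 2-fold higher (0) became 1 by the mean over cells of each cell's CPM, 2 with no minimum and 1 in neurons of no peptide type. The fold of summed subunits (1.03) was 1.07 centred on the median gene, 0.966 by the mean over cells, 1.07 without the lowest cluster and 1.09 matched on clusters. For precursors, the summed fold (0.914) was 0.723 in cells with at least 1000 UMIs. The count higher (1) was 0 in those cells, 0 by each cell's own marker score, 0 with a minimum of 50 UMIs, 9 with no minimum and 0 without the committed precursors. The count lower (0) was 1 in cells with at least 1000 UMIs, 1 among the authors' merged barcodes, 2 by the mean over cells and 1 without the cell holding most UMIs. For partner genes, the summed fold (1.01) was 1.05 centred and 1.04 matched on clusters. Their count higher (0) was 1 centred, 1 without the cell holding most UMIs and 1 without the lowest cluster. Their count lower (1) was 4 by the mean over cells, 0 with a minimum of 50 and 2 in neurons of no peptide type. The summed level in wild type neurons was 3119 CPM in cells with at least 1000 UMIs and 3900 CPM by the mean over cells, which gave 3766 CPM in the double heterozygote. In precursors it was 2611 and 1888 CPM in cells with at least 1000 UMIs, and 3045 CPM in wild type by the mean over cells. With any subunit, 80.8% and 79.8% of neurons had a UMI at 500 UMIs and 98.8% and 99.4% at 2000. Apart from the settings whose own construction changes which genes or cells enter, the cause was not tested. Gabra2 ranged from 0.19 to 0.62 over 18 alternatives, Gabrq from 0.72 to 0.89, Grik4 from -2.59 to -0.96 and, over 17, Grm2 from -2.18 to -0.90. The alternatives that leave out or match neuron clusters, use neurons of no peptide type or leave out the committed precursors were chosen after seeing the data.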
